A study of Mus musculus with 3 samples.

Results

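The Ly6c-high Ccr2+ monocytes that were not dividing made up 169 of the 10550 cells that passed the cell filter, in single-cell RNA-Seq of CD45+F4/80+ cells from the hearts of young C57BL/6 mice. They were chosen by measured transcript counts. A cell counted as a member when it held at least 3 UMIs (unique molecular identifiers, each standing for 1 captured transcript) of Ly6c2 and at least 1 UMI of Ccr2. Its C1qa, C1qb and C1qc UMIs together had to stay under 0.3% of its UMIs, its Ngp, Camp and Ltf UMIs under 0.5%, and it had to hold 0 UMIs of Mki67 and Top2a. The filter kept cells with 500 to 30000 UMIs, 500 to 5000 detected genes and under 10% mitochondrial UMIs. The levels of the genes in this rule are therefore given as a description only.

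The series held 3 libraries, with 1 library per group. In the sham library, mice had sham surgery at postnatal day 10 and received vehicle. In the vehicle library, the left anterior descending artery was ligated on that day to cause myocardial infarction (MI), and vehicle was given. In the SB225002 library, the same surgery was followed by SB225002, a drug that blocks CXCR2, a chemokine receptor. All hearts were taken 3 days after surgery, at postnatal day 13, and hearts were pooled within each library, so that no animal can be told from another. The cells came from the infarct and border zones and were sorted for CD45 and F4/80, a gate that keeps only those monocytes that carry F4/80. Since each group was 1 library of pooled hearts, no test of a treatment was possible. Every interval below is a 95% interval for counting error alone and says nothing of the spread between animals.

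Ly6c-high monocytes, also called classical monocytes, are made in bone marrow and spleen and carry CCR2, the receptor for the chemokine CCL2 that brings them out of the marrow and into injured tissue. In the infarcted heart they arrive early, produce inflammatory mediators and clear debris, and part of them mature into macrophages. In blood, some turn into Ly6c-low patrolling monocytes, a step that depends on the transcription factor Nr4a1 and raises the fractalkine receptor Cx3cr1. CXCR2 is best known as a receptor of neutrophils for the CXCL1 and CXCL2 group of chemokines.

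Of the 5 markers of the label, Ly6c2 and Ccr2 were in the rule, so only Plac8, Vcan and F10 bear on the identity. The summed level of all 5, which the rule fixed in part, was 6898 CPM (UMIs of a gene per 1000000 UMIs) in the sham library, 5556 in the vehicle library and 5034 in the SB225002 library. The C1q-positive macrophages of the same libraries held 49.5, 261 and 403 CPM of these markers. Plac8, a small cysteine-rich protein of myeloid cells that was not in the rule, had a median of 23 UMIs per cell in the vehicle library and 15.5 in the SB225002 library, and it was detected in 83 of 83 and 82 of 84 cells. Vcan, which encodes the matrix proteoglycan versican, had UMIs in 46 of 83 and 67 of 84 cells, and F10, which encodes coagulation factor X, in 57 and 67. Plac8 was also found in 36 of 50 and 30 of 40 B cells and Vcan in 154 of 203 and 108 of 148 fibroblasts, while F10 was found in 1 of 50 and 2 of 40 B cells. Ly6c1, the close relative of Ly6c2, had 1 UMI in each infarct library. Both genes are nearly identical copies, and how reads were split between them is uncertain.

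Some members also held transcripts that mark other cells. C1q-positive macrophage markers, of which the rule limited C1qa, C1qb and C1qc, had 502 UMIs in 54 of 83 vehicle cells and 458 UMIs in 63 of 84 SB225002 cells, with 8 and 6 of 9 markers detected. Timd4 was at 0 in both, and Lyve1 and Cd163 were at 0 with SB225002. Ly6c-low monocyte markers had 284 and 181 UMIs in 66 and 42 cells. T and NK cell markers had 41 UMIs in 3 vehicle cells and 0 UMIs in the SB225002 members. B cell markers had 18 and 9 UMIs, fibroblast markers 13 and 1, and endothelial markers 2 and 6. The immature neutrophil genes Ngp, Camp and Ltf, which the rule limited, had 24 and 87 UMIs. Of the genes used here as mature neutrophil markers (Csf3r, Cxcr2, Ly6g, Retnlg and Mmp9), the members held 179 UMIs in 59 of 83 vehicle cells. With SB225002 they held 347 UMIs in 41 of 84 cells, 106 of them in 1 cell. At least 2 such UMIs were held by 33 vehicle and 20 SB225002 cells. Csf3r was in 54 and 26 members, and 49 and 15 of these held under 5% of UMIs in the neutrophil-like list described below. Csf3r was thus not particular to neutrophil-like cells, but its UMIs alone could exclude a member in the setting that follows. Without members that held at least 2 UMIs of B, T and NK, fibroblast, endothelial, mural, mature neutrophil receptor or red cell markers, 38 vehicle and 57 SB225002 cells were left. The part of these transcripts in the ratios below was not tested beyond the values given without such cells.

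A large share of cell barcodes was common to more than one library. Of the members, 1 of 2 in the sham library, 56 of 83 in the vehicle library and 40 of 84 in the SB225002 library carried a barcode that another library also held. Among all cells past the filter the numbers were 1427 of 2352, 1996 of 3454 and 2227 of 4744. The same barcode marked a member in both libraries of a pair only once, between the sham and SB225002 libraries. Counts of most lists are therefore also given for the members whose barcode was in 1 library only, 27 vehicle cells and 44 SB225002 cells. The tables held 3390, 4511 and 5783 barcodes with 29323567 to 34235864 UMIs, and the median cell past the filter had 8520, 6400 and 5654 UMIs.

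Non-dividing Ly6c-high Ccr2+ monocytes were rare in the sham library and formed a small fraction of the sorted cells in both infarct libraries. The sham library held 2 of 2352 cells (0.0850%, exact binomial interval 0.0103% to 0.307%). The vehicle infarct library held 83 of 3454 cells (2.40%, 1.92% to 2.97%), and the SB225002 library held 84 of 4744 cells (1.77%, 1.41% to 2.19%). The infarct share with vehicle was 2.32 percentage points above sham (1.79 to 2.89). The share with SB225002 was lower than with vehicle by 0.63 points, with an interval for the difference from -1.30 to 0.0069 that includes 0.

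The dividing counterparts, Ly6c-high cells with any UMI of Mki67 or Top2a, were ordered differently. They numbered 16 cells in sham (0.680%), 64 in the vehicle library (1.85%) and 109 in the SB225002 library (2.30%). The SB225002 share of dividing cells was 0.44 points above vehicle (-0.21 to 1.08), an interval that includes 0. Of all Ly6c-high monocytes, the non-dividing cells were 11.1% in sham (1.38% to 34.7%), 56.5% with vehicle (48.0% to 64.6%) and 43.5% with SB225002 (36.4% to 50.8%). Dividing cells held more UMIs, with medians of 12948 and 9989 in the infarct libraries against 7754 and 8423 in the non-dividing cells. After each cell was thinned to 1500 UMIs, which left out 76, 221 and 413 shallower cells, the non-dividing share of cells was 0.0879%, 0.773% and 0.531%, and the infarct order was kept. At that depth the non-dividing cells were 2 of 4 Ly6c-high monocytes in sham (50%, 6.76% to 93.2%), 69.4% with vehicle (51.9% to 83.7%) and 59.0% with SB225002 (42.1% to 74.4%), so the low sham value at full depth was not kept. Dividing sham cells had a median of 16571.5 UMIs and the 2 sham members 5653.5. Without cells of shared barcodes, the shares were 0.108%, 1.85% and 1.75%.

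**Figure D1:**
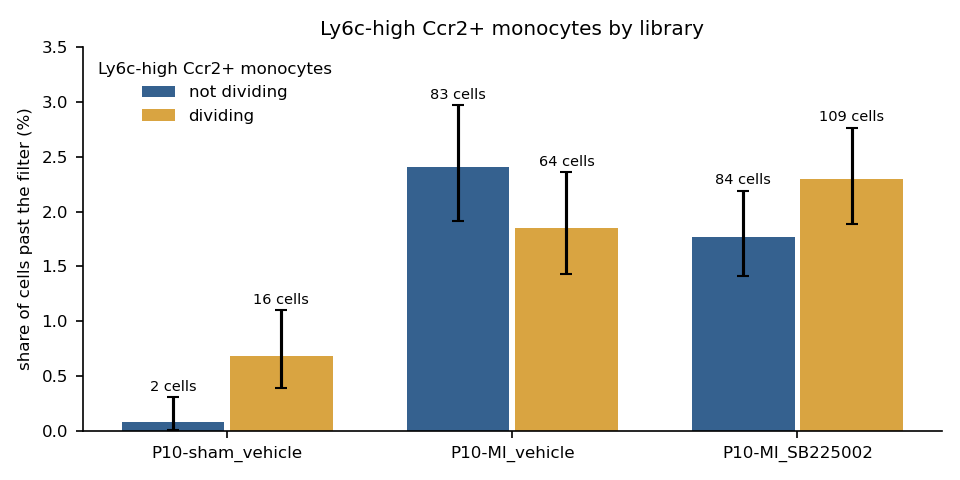
Share of all cells past the filter, in percent, that were non-dividing (blue) or dividing (yellow) Ly6c-high Ccr2+ monocytes in each of the 3 libraries. Bars start at 0, lines are exact 95% binomial intervals and numbers above them are cells. Non-dividing cells rise from 2 in sham to 83 and 84 in the infarct libraries, whose intervals overlap.

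Some cells lay close to the limits of the rule. With Ly6c2 at 3 UMIs, the lowest accepted value, there were 8 vehicle and 13 SB225002 members, and 14 and 17 cells stood just outside with 2 UMIs. The C1q limit left out 4 vehicle and 11 SB225002 cells between 0.3% and 0.4%, and 19 and 46 cells above 0.4%, while 7 and 6 members lay between 0.2% and 0.3%. The Ccr2 limit left out 6 vehicle and 18 SB225002 cells that met every other term. These had 67035 and 79293 CPM of S100a8, which encodes a calcium-binding alarmin. The limit on Ngp, Camp and Ltf left out 11 vehicle and 5 SB225002 cells, with 103920 and 73169 CPM of S100a8. The part of these limits in the neutrophil-like shares given below was not tested.

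The level of Ccr2 in the members was 1066 CPM in the vehicle library and 811 CPM in the SB225002 library. Ly6c2 was at 989 and 1156 CPM, Vcan at 276 and 547 CPM, F10 at 223 and 339 CPM and Plac8 at 3002 and 2180 CPM. The medians of Ly6c2 per cell were the same in both infarct libraries, 7 UMIs, with the highest cells at 48 and 52 UMIs. The 2 sham members held 16 Ly6c2 UMIs and 6 Ccr2 UMIs.

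Against the C1q-positive macrophages of the same libraries, the members differed in the genes below. The contrast overlaps with the rule through Ly6c2 and the C1q genes, so it is a description. The sham library carried little weight in it, since its 2 members held 11307 UMIs, with 0 UMIs of some genes named. Among 1526 genes that reached 100 CPM in one class or the other of every library, the 12 highest ratios that kept their direction in all 3 libraries included Chil3, a chitinase-like secreted protein, at 228 against 8.63 CPM in the vehicle library and 235 against 18.2 CPM with SB225002. They also included Hp, which encodes haptoglobin (788 against 48.0 CPM with vehicle), and Itgb7, the integrin beta 7 chain (137 against 6.35 CPM). Ltb4r1, a receptor for the attractant leukotriene B4, was at 240.2 against 18.5 CPM with vehicle and 299.9 against 37.6 CPM with SB225002. The remaining names were Ly6c2, Vcan, Plac8, F10, Napsa, Mcemp1, Ifitm1 and Mmp8.

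The 12 lowest ratios were those of C1qa and C1qc, which the rule limits, and of Hpgds, Fcrls, Mrc1, Cbr2, Tanc2, Folr2, Igf1, Lyve1, Gas6 and Psd3. Mrc1, the mannose receptor, was at 85.9 CPM in vehicle members and 1820.4 CPM in macrophages, and at 56.7 and 1013 CPM with SB225002. Igf1, a growth factor, was at 26.8 against 485 CPM, and Gas6, a ligand of receptors for engulfment, at 28.2 against 401 CPM with vehicle. Against dividing Ly6c-high monocytes the genes with the highest ratios included lectin receptors. Clec4a3 and Clec4a1, of the C-type lectin family, were at 232 against 110.3 CPM and 166 against 93.5 CPM with vehicle. Fth1, the ferritin heavy chain that stores iron, was at 5585 against 3302 CPM with vehicle and 7663 against 4375 CPM with SB225002.

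The effect of infarction on gene levels within these cells was not computed, because the 2 sham members held 11307 UMIs in all and 1 of them held 87.3% of these. The comparison of SB225002 with vehicle after infarction rested on 740211 and 745152 UMIs, with no cell above 3.33% of its library's sum. A gene entered it with at least 50 CPM in either library, and it was called when the ratio was at least 2-fold with a counting interval that left out 1. Of 3452 genes, 156 were higher with SB225002 (4.52%) and 174 were lower (5.04%), and the median log2 ratio was 0.03. These 2 percentages are the background for each list count below in this main setting. From the mean of per-cell CPM, the shares higher and lower were 6.47% and 7.35%. They were 5.84% and 8.77% without members holding other-type markers, and 6.16% and 5.91% with at least 5 Ly6c2 UMIs. With a minimum of 20 CPM they were 4.61% and 6.26%, and with unshared barcodes 7.69% and 10.5%. Without the cell of each library that held most UMIs of a gene, 147 of the 156 and 171 of the 174 genes kept their call.

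The 12 lowest ratios were led by genes of antigen presentation, Hpgd and Cx3cr1, and the 12 highest by Rsad2, Mmp12, Cxcl10 and Ccl8. H2-Ab1, which encodes the beta chain of an MHC class II molecule, had the lowest ratio, at 249.6 CPM with vehicle and 6.75 CPM with SB225002 (log2 ratio -5.21, -6.85 to -3.96). Hpgd, the enzyme that inactivates prostaglandins, was at 76.5 CPM with vehicle and 4.05 CPM with SB225002 (log2 ratio -4.24, -6.56 to -2.62), on 3 UMIs in the latter. Cx3cr1, the fractalkine receptor, was at 122 CPM with vehicle and 14.9 CPM with SB225002 (log2 ratio -3.04, -4.09 to -2.13). It was detected in 46 of 83 vehicle cells and 7 of 84 SB225002 cells, and no single cell held more than 6 of its 91 vehicle UMIs. At 2000 UMIs, the shares were 21.4% and 2.69% of members. B cells had 5.75% and 9.74%, the latter from 22 cells, and fibroblasts had 3.05% and 1.18%. The SB225002 share of members thus lay between those of fibroblasts and B cells.

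Among the other low ratios, Grk3, a kinase that desensitizes G-protein-coupled receptors, stood at 76.5 and 12.2 CPM (log2 ratio -2.65), Ldlrad3, a member of the LDL receptor family, at 92.6 and 14.9 CPM (-2.64), and Tppp3, a tubulin-binding protein, at 168 and 29.7 CPM (-2.50). Stxbp6, Pdlim1 and Mbp completed the 12 lowest with log2 ratios of -2.63, -2.36 and -2.09. The 2 sham members held no UMI of Cx3cr1, Grk3, Ldlrad3, Tppp3 or the MHC class II chain genes. With 11307 sham UMIs in all, these and later counts of 0 in sham members say little of a gene's level. Dividing sham monocytes held Cx3cr1 at 149 CPM.

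The 12 highest ratios were led by genes with few vehicle UMIs, and several rested on 1 cell. Rsad2, the antiviral enzyme viperin, had 2 and 104 UMIs (log2 ratio 5.71, 3.82 to 8.77), 75 of them in 1 SB225002 cell. Mmp12, macrophage elastase, had 7 and 308 UMIs, 305 of them in 1 cell. Cxcl10 and Ccl8 had 32 of 43 and 45 of 45 SB225002 UMIs in 1 cell. In all, 9 of the 156 higher genes had more UMIs in 1 SB225002 cell than in all the others of that library.

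Others were spread over more cells. Slfn4, a Schlafen family gene of myeloid cells, was at 33.6 CPM with vehicle and 242 CPM with SB225002 (log2 ratio 2.85, 2.24 to 3.52), with UMIs in 13 and 39 cells. The 2 sham members held 7 UMIs, all in 1 cell, which is 619 CPM. B cells held it in 1 of 50 and 1 of 40 cells. Il1rn, the secreted antagonist of interleukin-1, was at 18.8 CPM with vehicle and 147 CPM with SB225002 (log2 ratio 2.97, 2.16 to 3.89), in 7 and 24 cells. Slc7a11, the cystine transporter, was at 6.71 and 75.7 CPM in 4 and 21 cells, and Ccnb2, cyclin B2, at 8.05 and 58.1 CPM (2.85).

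**Figure D2:**
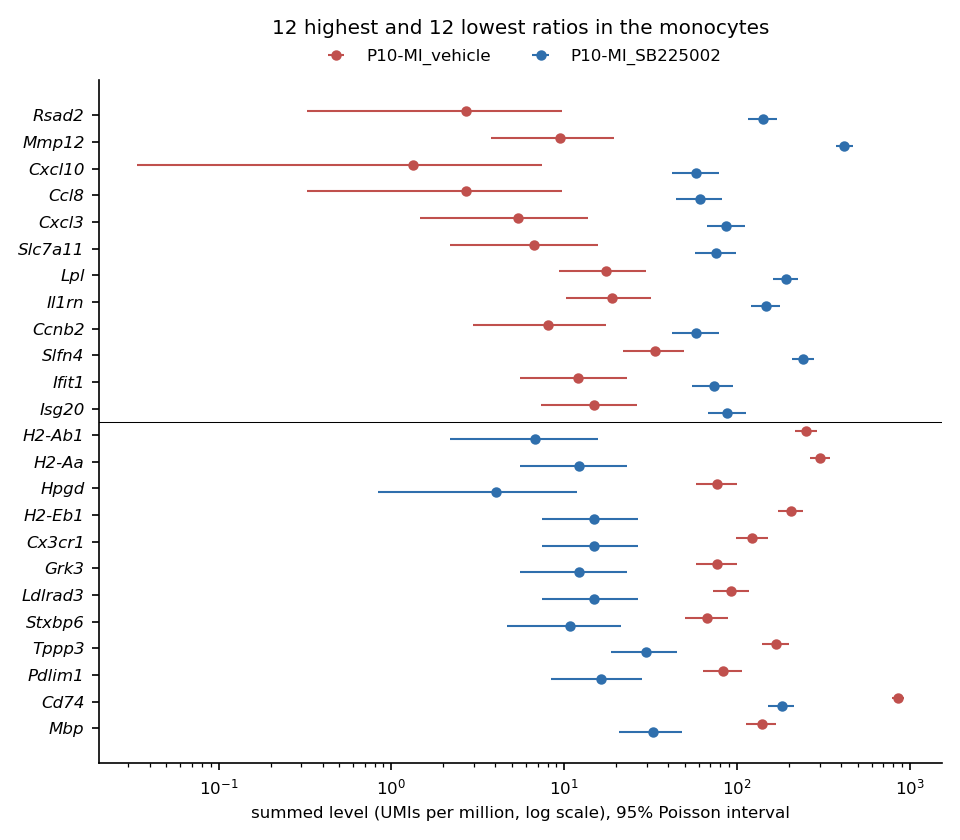
Summed level of the 12 genes with the highest and the 12 with the lowest called ratios, in CPM on a log axis, in the members of the vehicle (red) and SB225002 (blue) infarct libraries, with 95% Poisson intervals. A line separates the higher genes, at the top, from the lower ones. The 2 intervals of each gene do not overlap, and the genes were selected by this ratio.

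Interferon-stimulated genes stood higher with SB225002. Type I interferons act through a receptor and a complex of transcription factors that binds the interferon-stimulated response element in the promoters of these genes. Of 26 tested members of the list, 9 were called higher and 0 lower, a share of 34.6% beside the background of 4.52%. The median log2 ratio was 0.76, beside 0.03 over all genes, and 25 of 26 lay above 0. In members with unshared barcodes, 10 of 25 were higher with a median of 0.66, beside 7.69% of all genes tested in those cells. For genes lower there, the background was 10.5%.

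Isg15, a ubiquitin-like modifier, was at 63.1 CPM with vehicle and 288 CPM with SB225002 (log2 ratio 2.19, 1.73 to 2.68), and it was detected in 19 and 33 cells, beside 1 of 50 and 2 of 40 B cells. Ifit1, an RNA-binding antiviral protein, was at 12.1 CPM with vehicle and 73.0 CPM with SB225002 (log2 ratio 2.59, 1.56 to 3.80), but 30 of its 54 SB225002 UMIs were in 1 cell. Zbp1, a sensor of nucleic acids, was at 84.5 CPM with vehicle and 203 CPM with SB225002 (log2 ratio 1.26, 0.83 to 1.71). It had UMIs in 35 vehicle and 58 SB225002 cells. Oas3, Rtp4, Mx1 and Isg20, a synthetase, a chaperone, a GTPase and an exonuclease, had log2 ratios of 1.39, 1.40, 1.29 and 2.57. Mx1 was at 0.31 without the top cell of each library.

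The most abundant members of the list had smaller ratios. Ifitm3, a membrane protein that limits virus entry, was at 2526 and 3513 CPM (log2 ratio 0.48, 0.39 to 0.56), Ifitm6 at 786 and 893 CPM, and Ifi27l2a at 788 and 669 CPM (-0.24). The same libraries gave log2 ratios for Isg15 of 1.16 in dividing Ly6c-high monocytes and 1.65 in C1q-positive macrophages, and for Slfn4 of 1.82 and 1.49. Whether the classes differed in this was not tested.

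The promoters of 4 of these genes are shown because the genes were called and their sequence holds letters of the response element. The pattern GAAA, any 2 bases, then GAAA was searched on both strands (TTTC, any 2 bases, then TTTC on the other), overlapping matches included, in the RefSeq promoter windows of build GRCm38.p6, from 250 bases before to 50 after each start. A window was given for 19 of the 26 tested genes, and 10 of these held a match (52.6%), beside 4.97% of the 2737 tested genes with a window and 3.99% of all 27025. Of the 9 called genes, 6 had a window, and 4 held a match: Isg15, Ifit1, Oas3 and Rsad2. Slfn4 and Isg20 had no match in theirs. The 150 bases before each start site follow, 5′ to 3′ on the gene's strand, with matches in capitals. The 3 matches in Isg15 overlap each other in 1 run.
Isg15 (chr4:156200819-156200968, minus strand): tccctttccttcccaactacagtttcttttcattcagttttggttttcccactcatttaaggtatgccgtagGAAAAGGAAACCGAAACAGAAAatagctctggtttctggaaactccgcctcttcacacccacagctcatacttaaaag
Ifit1 (chr19:34640739-34640888, plus strand): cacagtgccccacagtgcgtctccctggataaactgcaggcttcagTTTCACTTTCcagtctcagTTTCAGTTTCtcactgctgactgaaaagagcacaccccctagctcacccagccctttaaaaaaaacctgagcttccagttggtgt
Oas3 (chr5:120777660-120777809, minus strand): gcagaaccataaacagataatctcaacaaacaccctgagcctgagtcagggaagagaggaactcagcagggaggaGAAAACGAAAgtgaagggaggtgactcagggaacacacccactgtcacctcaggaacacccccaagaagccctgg
Rsad2 (chr12:26456453-26456602, minus strand): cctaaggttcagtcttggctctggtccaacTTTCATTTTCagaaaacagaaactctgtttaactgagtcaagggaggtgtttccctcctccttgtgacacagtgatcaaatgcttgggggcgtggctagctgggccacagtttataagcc
The matches began 66 to 78 bases before the start site in Isg15, 85 and 104 in Ifit1, 75 in Oas3 and 120 in Rsad2. A match describes these letters and does not show that a factor was bound.

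Macrophage maturation and repair genes also stood higher with SB225002. Of 24 tested, 13 were higher (54.2%, background 4.52%) and 0 were lower, with a median log2 ratio of 1.13. With unshared barcodes, 16 of 23 were higher and 1 was lower. Spp1, the secreted glycoprotein osteopontin, was the most abundant, at 3525 CPM with vehicle and 8327 CPM with SB225002 (log2 ratio 1.24, 1.17 to 1.31). It was detected in 31 of 83 and 67 of 84 cells, while 1 vehicle cell held 1132 of 2627 UMIs, and neither sham member held any. B cells, which should lack Spp1, held it in 13 of 50 and 18 of 40 cells, and fibroblasts in 40 of 203 and 78 of 148. At a common depth of 2000 UMIs, the shares were 19.8% and 59.7% in members, 18.0% and 44.3% in B cells and 8.43% and 22.1% in fibroblasts, so the vehicle share of members was close to that in B cells.

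Fabp5, a carrier of fatty acids, was at 209 CPM with vehicle and 848 CPM with SB225002 (log2 ratio 2.02, 1.76 to 2.28). At 2000 UMIs, it was found in 13.7% and 34.0% of members, beside 6.59% and 28.3% of B cells. Ctsd and Ctsl, lysosomal proteases, were at 662 and 1616 CPM and at 431 and 1061 CPM, with log2 ratios of 1.29 and 1.30. Adam8, a membrane metalloprotease, had UMIs in 23 vehicle and 63 SB225002 cells (111 and 349 CPM, log2 ratio 1.65, 1.28 to 2.02). Gpnmb, Cd9, Cd63, Lpl and Thbs1, found in 17 to 52 of the SB225002 cells, had ratios of 1.63, 1.40, 2.50, 3.45 and 1.15. Mertk, a receptor for engulfment, was at 17.4 and 68.9 CPM (1.98), and Cd36, a scavenger receptor, at 26.8 and 58.1 CPM (1.11), which turned to -0.57 (-2.37 to 1.27) with unshared barcodes. At 2000 UMIs with SB225002, Gpnmb, Cd63 and Lpl were found in 14.8%, 11.8% and 11.4% of members. Among the 22 B cells of that depth, the shares were 8.55%, 10.8% and 10.2%. Adam8 and Mertk were in 42.1% and 10.3% of members, beside 4.94% and 1.97% of B cells. The part of this background in the ratios was not tested.

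Other abundant members of the list were not called. Apoe, the lipid carrier, was at 1908 and 1781 CPM (log2 ratio -0.10, -0.21 to 0.01), Lgals3, galectin-3, at 2153 and 3450.4 CPM (0.68), and Tgfbi, a matrix protein, at 977 and 1652 CPM (0.76). C1q-positive macrophage markers, which the rule limits in part, summed to 674 CPM in vehicle members and 619 CPM in SB225002 members. Spp1 had log2 ratios of 2.88 in dividing monocytes and 2.15 in macrophages.

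Of the 14 chemokine genes tested, 8 were higher (57.1%, background 4.52%), 0 were lower, and the median log2 ratio was 1.33. With unshared barcodes, 6 of 12 were higher. The median of the same 14 genes was 1.18 in dividing monocytes and -0.27 in macrophages, and whether the classes differed was not tested. Ccl2, the ligand of CCR2, was at 784 CPM with vehicle and 2156 CPM with SB225002 (log2 ratio 1.46, 1.32 to 1.60), in 29 of 83 and 63 of 84 cells. Ccl7, another CCR2 ligand, was at 91.3 CPM with vehicle and 346 CPM with SB225002 (log2 ratio 1.92, 1.53 to 2.33), in 7 and 23 cells. At 2000 UMIs, the shares of members with Ccl2 were 18.5% and 59.1%, beside 5.89% and 13.6% of B cells, and with Ccl7 3.64% and 17.6%, beside 1.07% and 12.1%. No UMI of either was found in the 2 sham members. Ccl12, also a CCR2 ligand, had a log2 ratio of 1.21 that turned to -0.72 (-1.40 to -0.04) with unshared barcodes. Of its 47 vehicle UMIs, 38 were in 1 cell.

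Ccl5, Ccl8, Ccl24, Cxcl3 and Cxcl10 were called on UMIs from few cells, 1 to 10 in the SB225002 library, and each had between 32 and 100 UMIs in 1 of them. Cxcl2, a ligand of CXCR2, was at 326 and 189 CPM (log2 ratio -0.79, -1.10 to -0.48), short of the 2-fold limit, from 12 and 23 cells. Ccl6 and Ccl9, chemokines of rodent myeloid cells, were at 652 and 612 CPM (-0.09) and at 460.3 and 742 CPM (0.69).

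Receptors and adhesion molecules moved in both directions, with 3 of 15 higher and 3 of 15 lower (20% each, background 4.52% and 5.04%), and a median log2 ratio of 0.02. With unshared barcodes the counts were again 3 and 3 of 15, and without members holding other-type markers 1 and 3 of 15. Ccr1, a receptor of inflammatory chemokines, was at 170.4 and 413 CPM (log2 ratio 1.28, 0.98 to 1.59). C5ar1, the receptor of complement fragment C5a, was at 156 and 376 CPM (1.27, 0.95 to 1.60). In contrast, the integrin chains Itga4, part of VLA-4, and Itgal, part of LFA-1, were at 338 and 113 CPM (-1.58, -1.95 to -1.21) and at 220.1 and 81.1 CPM (-1.44, -1.89 to -1.01). Itgam, Itgb2 and Cd44 had ratios of 0.30, 0.39 and 0.02.

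Cxcr2, which encodes the target of SB225002, was detected in 8 of 83 vehicle members (9.64%, 4.25% to 18.1%) and 14 of 84 SB225002 members (16.7%, 9.42% to 26.4%), and in neither sham member. B cells, which should lack it, held it in 0 of 50 and 0 of 40 cells (exact upper bounds 7.11% and 8.81%), and fibroblasts in 1 of 203 and 0 of 148. The B cells were shallower, with medians of 3520 and 2092.5 UMIs, and the fibroblasts had medians of 5154 and 7126.5 UMIs. At a common depth of 2000 UMIs, the shares of members were 2.58% and 5.84%. Csf3r, the receptor of granulocyte colony-stimulating factor, was detected in 54 of 83 vehicle members (65.1%) and 26 of 84 SB225002 members (31.0%), and at the common depth in 27.0% and 13.4%. B cells held Csf3r in 1 of 50 and 5 of 40 cells.

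Genes of MHC class II and of dendritic-like monocytes were lower with SB225002. Of 8 tested, 6 were lower (75%, background 5.04%), 0 were higher, and the median log2 ratio was -2.09. With at least 5 Ly6c2 UMIs per member, 3 of 6 were lower with a median of -1.16. With unshared barcodes, 4 of 7 were lower. The vehicle level came from few cells. H2-Aa had 225 vehicle UMIs in 7 cells, 75 of them in 1 cell, and 9 SB225002 UMIs in 2 cells (log2 ratio -4.63, -5.78 to -3.68). H2-Eb1 had 152 and 11 UMIs in 6 and 3 cells.

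Cd74, the invariant chain, was spread more widely, at 849 CPM with vehicle and 181 CPM with SB225002 (log2 ratio -2.23, -2.51 to -1.96), in 32 and 22 cells. Tmem176b and Tmem176a, neighbouring membrane protein genes, had ratios of -1.94 and -1.28, and the latter was at 0.66 (-1.09 to 2.77) with unshared barcodes. H2-DMa and Cd86 were at -0.59 and -0.11. In dividing Ly6c-high monocytes the ratio of H2-Ab1 was 2.94, and in macrophages -0.29. The difference between these classes was not tested.

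Transcription factors of the monocyte lineage leaned lower with SB225002, with 4 of 18 lower (22.2%, background 5.04%), 0 higher and a median log2 ratio of -0.29. With unshared barcodes, 4 of 18 were lower and 1 was higher. Nr4a1, needed by patrolling monocytes, was at 323 CPM with vehicle and 79.7 CPM with SB225002 (log2 ratio -2.02, -2.46 to -1.60), in 61 of 83 and 33 of 84 cells, beside 5 of 50 and 2 of 40 B cells. Klf4 and Klf2, Krüppel-like factors of monocytes and of quiescence, were at 179.8 and 51.3 CPM (log2 ratio -1.81, -2.37 to -1.28) and at 419 and 165 CPM (-1.35, -1.66 to -1.04). At 2000 UMIs, Nr4a1, Klf4 and Klf2 were in 41.1%, 30.5% and 55.2% of vehicle members and 14.8%, 7.85% and 23.6% of SB225002 members. In fibroblasts, Nr4a1 was in 12.6% and 6.65% and Klf4 in 30.9% and 18.4%, but Klf2 was in 24.0% and 27.1%. Whether the lower levels were particular to monocytes was not tested. Id1, an inhibitor of helix-loop-helix factors, was at 179.8 and 89.2 CPM (-1.01). Spi1, which encodes the myeloid factor PU.1, and Cebpb were at 0.08 and 0.09.

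The Ly6c-low and patrolling monocyte markers were Ace, Ear2, Adgre4, Treml4, Spn, Eno3 and Pglyrp1. They summed to 381 CPM in vehicle members and 245 CPM in SB225002 members. In the sham members Pglyrp1 alone was found, with 5 UMIs in 1 cell. The immature neutrophils of the infarct libraries held 3868 and 4066 CPM of these markers, so their sum was not particular to Ly6c-low monocytes. The genes Nr4a1, Klf2, Cx3cr1 and Csf1r, the receptor of the monocyte growth factor CSF1, had log2 ratios of -0.61, -0.84, -0.72 and -0.33 in macrophages, beside -2.02, -1.35, -3.04 and -0.96 in the members.

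Immediate-early genes, which cells switch on within minutes of a stimulus, were lower with SB225002. Of 18 tested, 6 were lower (33.3%, background 5.04%), 0 were higher, and the median log2 ratio was -0.69, with 6 of 17 lower for unshared barcodes. Fos, a subunit of the AP-1 factor, was at 1520.5 and 844 CPM (-0.85, -0.99 to -0.71) and Jun at 761 and 463 CPM (-0.72, -0.91 to -0.52), both short of 2-fold. Called genes were Ppp1r15a, Atf3, Rhob, Fosb, Jund and Egr1, with ratios from -2.05 to -1.03. Atf3, a stress-induced repressor, was at 249.6 and 81.1 CPM, in 57 and 28 cells. The ratio of Fos was -0.92 in dividing monocytes and -1.10 in macrophages, and that of Jun -0.92 and -0.93.

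Other stress and cytokine lists had few calls. Of 8 NF-kB feedback genes (median log2 ratio -0.48), 1 was lower, Tnfaip2 (log2 ratio -1.32), and Nfkbia, the inhibitor of NF-kB, was at 576 and 422 CPM (-0.45). Of 6 heat shock genes, 0 were called either way (median 0.23, or -0.019 from the mean of per-cell CPM). Of 22 cytokine and inflammasome genes, Il1rn and Il18 were higher and Il17ra and Aim2 were lower (9.09% each way, list median -0.14, or 0.020 from the mean of per-cell CPM), with ratios of 2.97, 1.53, -1.01 and -1.15. Il18 encodes an inflammasome product, Il17ra a receptor of interleukin-17 and Aim2 a sensor of DNA.

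Innate receptors had calls in both directions. Of 15 pattern recognition receptors, 4 were higher and 1 was lower (26.7% and 6.67%), with a median log2 ratio of 0.73 and 8 of 15 above 0. With unshared barcodes, 6 of 18 were higher and 2 were lower. Without members holding other-type markers, 3 of 16 were higher and 4 were lower, with a median of 0.08. Clec4d, Clec4e and Clec4n, C-type lectins that bind sugars of microbes and dead cells, were at 169 and 401 CPM, 132 and 305 CPM and 119 and 309 CPM, with log2 ratios of 1.25, 1.22 and 1.37. Msr1, a scavenger receptor, had 1.09, and Ly86, the partner of a receptor related to TLR4, had -1.36. Of 6 Fc receptor genes (median 0.23), Fcgr1 and Fcgr4, receptors for IgG, were higher (1.67 and 1.79) and Fcgrt, the neonatal Fc receptor, was lower (-1.72). With unshared barcodes, 2 were higher and 0 were lower. Fcgr4 had UMIs in 19 of 83 and 50 of 84 cells, beside 0 of 50 and 3 of 40 B cells. Cybb, the catalytic subunit of the phagocyte oxidase and the 1 called gene of 6 in its list (median 0.24), was at 845 and 372 CPM (-1.19), while its partner Cyba was at 1577 and 2117 CPM (0.42).

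**Figure D3:**
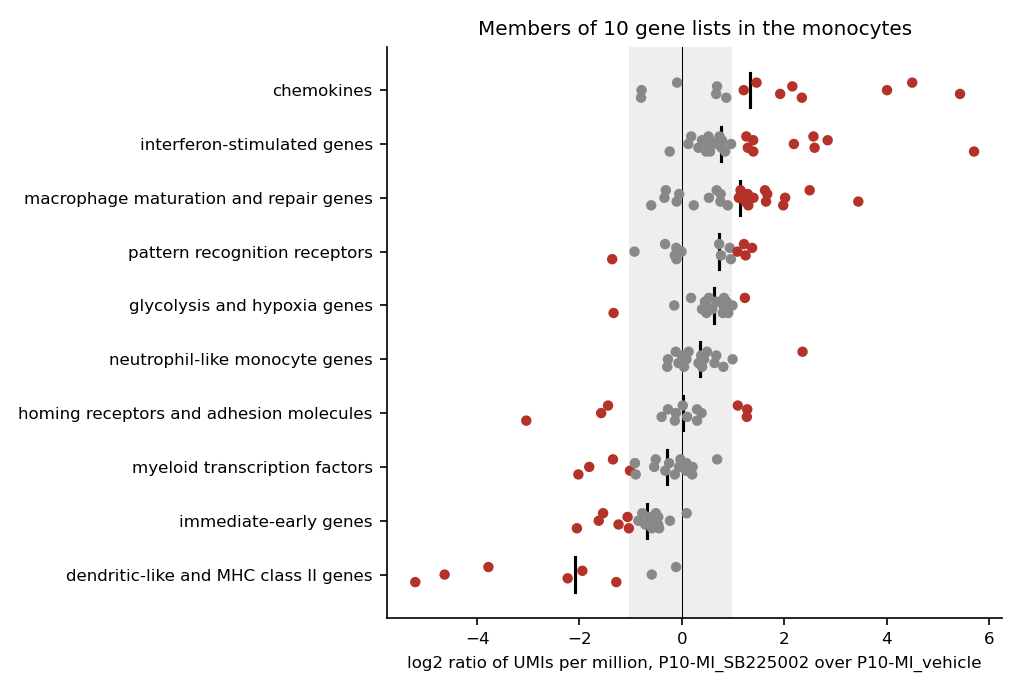
Log2 ratio of summed CPM, SB225002 over vehicle, for each tested member of 10 gene lists. Red points were called, grey points were not, black bars are list medians and the grey band spans the central 90% of all 3452 genes tested. Medians range from -2.09 for the dendritic-like and MHC class II list to 1.33 for chemokines.

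Within each library the members differed widely in the neutrophil-like list, led by the calcium-binding alarmins S100a8 and S100a9. Summed over cells, 1 of 18 genes was higher (5.56%, background 4.52%) and 0 were lower, with a median log2 ratio of 0.35. This count depended on the cells taken. It was 9 higher of 18 (median 0.96) from the mean of per-cell CPM, 9 higher and 1 lower of 17 (1.23) without members holding other-type markers, and 7 higher and 1 lower of 18 (0.35) with unshared barcodes. With at least 5 Ly6c2 UMIs per member it was 0 higher and 3 lower of 18 (-0.27). Over all genes, 6.47%, 5.84%, 7.69% and 6.16% were higher under these settings, in that order, and 5.91% were lower in the last. S100a8 was at 14233 and 17848 CPM (log2 ratio 0.33, 0.29 to 0.36) and S100a9 at 12546 and 17630.1 CPM (0.49, 0.45 to 0.53). Retnlg, a resistin-like secreted protein, was the called gene (2.36), with 97 of 214 UMIs in 1 SB225002 cell.

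Per cell, the libraries differed more than in the sums. The list took a median of 0.367% of a vehicle member's UMIs, with a range of 0.0195% to 28.2%, and a median of 1.63% of an SB225002 member's, with a range of 0.0568% to 32.9%. At 5% or more, a limit chosen after the values were seen, stood 7 of 83 vehicle cells (8.43%, 3.46% to 16.6%) and 26 of 84 SB225002 cells (31.0%, 21.3% to 42.0%), with 1 and 4 cells between 4% and 6%. Those 7 and 26 cells held 81.9% and 82.7% of the list's UMIs. In the vehicle library a few very high cells thus carried the sum, and in the SB225002 library more cells did. The 2 sham members took 6.98% and 0.902%.

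Genes of the rule and other monocyte genes differed in level between these cells and the rest. Ly6c2 and Ccr2 were present in every member by the rule. Those at 5% or more had 799 CPM of Ly6c2 and 606 CPM of Ccr2 with vehicle, and 1072 and 694 CPM with SB225002, beside 1023 and 1149 CPM, and 1189 and 856 CPM, in the cells under 5%. Plac8, outside the rule, was at 1869 CPM in the high cells and 3207 CPM in the rest with vehicle, and at 2445 and 2078 CPM with SB225002. Csf1r was detected in 6 of 7 and 17 of 26 high cells, beside 72 of 76 and 50 of 58 of the rest. Cxcr2 was detected in 6 of the 7 vehicle cells and 8 of the 26 SB225002 cells at 5% or more. Under 5%, it was in 2 of 76 and 6 of 58 cells. Retnlg was in 1 of 7 and 5 of 26 high cells, at 263 and 1024 CPM, and in 3 of 76 and 3 of 58 of the rest. Csf3r was in 5 of 7 and 11 of 26 high cells, and in 49 of 76 and 15 of 58 of the rest. Whether mature neutrophils lay among the high cells, alone or as doublets, was not tested. The high vehicle cells were deeper, with a median of 19060 UMIs against 7379 in the rest, while the SB225002 cells had 7566 against 8734.5. The part of depth in these shares was not tested.

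Without the cells at 5% or more, 76 vehicle and 58 SB225002 members were left. Of the lists above, 12 of 29 interferon-stimulated genes, 14 of 24 maturation genes and 7 of 12 chemokines were higher, beside 6.70% of all genes tested, and 6 of 8 dendritic-like and 7 of 18 immediate-early genes were lower, beside 7.52%. Retnlg turned to -1.76 and Ccl5 to -4.08.

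Other lists also differed per cell. The maturation list took a median of 0.718% of UMIs with vehicle and 1.51% with SB225002, with interquartile ranges of 0.572% to 1.07% and 0.904% to 3.12%. Glycolysis and hypoxia genes took 0.411% and 0.888%, with interquartile ranges of 0.306% to 0.610% and 0.673% to 1.21% that did not overlap. Of 18, 1 was called higher (Bnip3, a mitophagy receptor induced by hypoxia, 1.23) and 1 lower (5.56% each), with a median log2 ratio of 0.64. With unshared barcodes, 8 of 20 were higher and 1 was lower (median 1.02), and from the mean of per-cell CPM 6 of 18 were higher and 1 was lower (0.92). Gapdh, Pkm and Ldha, enzymes of glycolysis, were at 1727 and 3011 CPM, 705 and 1399.6 CPM and 345 and 632 CPM, with log2 ratios of 0.80, 0.99 and 0.87. Hk2, a hexokinase, was lower (-1.33).

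The respiratory chain list was close between the libraries, with medians of 1.74% of UMIs in both (median log2 ratio 0.13), and 1 of 43 genes was lower, Atp5k (-1.04). Ribosomal protein genes took medians of 6.47% and 4.83%. Of 25, 5 were lower (20%, background 5.04%): Rps27, Rps28, Rps29, Rpl37 and Rpl38, with log2 ratios from -1.63 to -1.02 and a list median of -0.21. With unshared barcodes, 7 of 25 were lower. In macrophages Rps28 and Rps29 had ratios of -1.29 and -1.44. Ribosomal protein genes have many near-identical copies in the genome, so their counts are uncertain. The median mitochondrial share of members was 3.23% with vehicle and 2.06% with SB225002, and its part in these ratios was not tested.

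**Figure D4:**
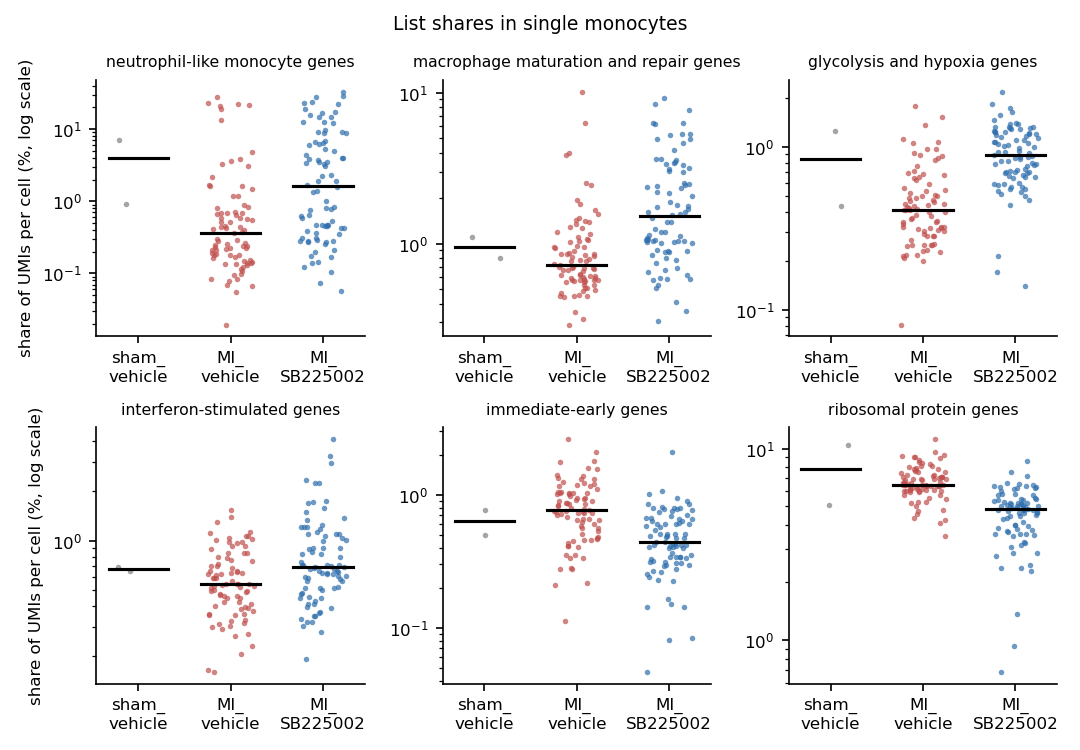
Share of each member's UMIs, in percent on log axes, taken by 6 gene lists in the sham (2 cells), vehicle (83 cells) and SB225002 (84 cells) libraries. Each point is 1 cell and bars are medians. The neutrophil-like list spreads over a wide range in both infarct libraries, with medians of 0.367% and 1.63%, and the immediate-early medians are 0.770% and 0.440%.

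Shares of the lists in single cells went together in similar ways in both libraries for some pairs and not for others, as a description over cells that share a library. The maturation and glycolysis shares had a Spearman correlation of 0.34 with vehicle and 0.33 with SB225002, the neutrophil-like and MHC class II shares of -0.42 and -0.28, and the neutrophil-like and ribosomal shares of -0.49 and -0.36. The Spearman correlation of the neutrophil-like and maturation shares was 0.15 over 83 vehicle cells and -0.43 over 84 SB225002 cells. That of the neutrophil-like and interferon shares was -0.35 and 0.14. Shares of 1 cell sum to a whole, so a list that takes a large part of the UMIs lowers the rest. Glycolysis shares followed the UMI total of the cell, at 0.58 and 0.36.

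**Figure D5:**
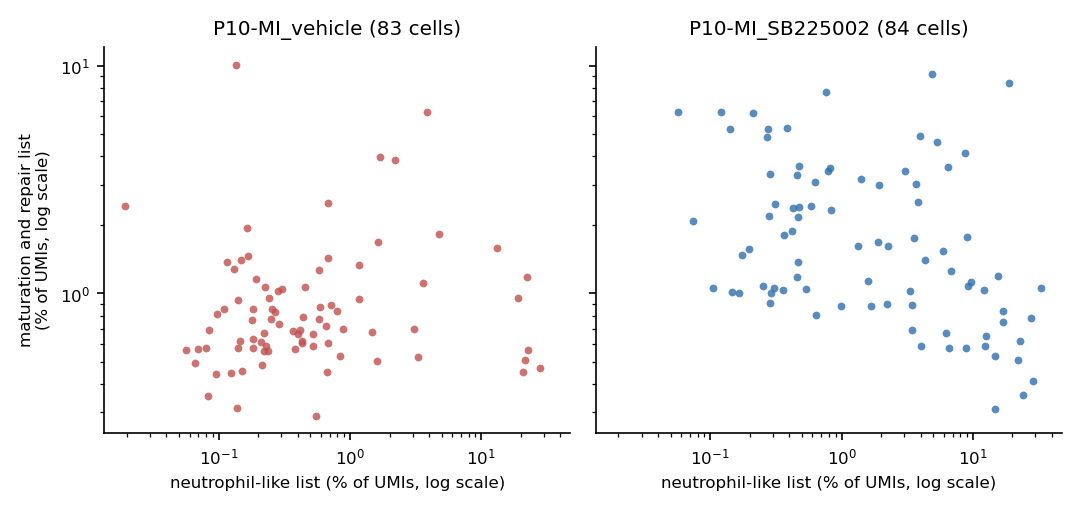
Share of UMIs in the maturation and repair list against the share in the neutrophil-like list, both in percent on log axes, for each vehicle (left, 83 cells) and SB225002 (right, 84 cells) member. With SB225002 the cells with the highest maturation shares lie mostly at low neutrophil-like shares (Spearman -0.43), and with vehicle most cells lie low on both axes (0.15).

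Of 3 progenitor granule genes tested (median 0.99, background 4.52%), 1 was called, and 3 of 5 with a minimum of 20 CPM. Fcnb, a ficolin of immature myeloid cells, was higher (16.1 and 58.1 CPM, log2 ratio 1.85, 0.90 to 2.91) in 9 and 27 cells, and Prtn3, a granule protease, was at 88.6 and 176 CPM (0.99). Of 5 cell cycle genes other than the pair in the rule (median 0.55), Ccnb2 and Stmn1 were higher (2.85 and 1.62), in 5 against 20 and 13 against 34 cells. That is 40% of the list, beside 4.52%, and with a minimum of 20 CPM 7 of 11 were higher (median 1.59). The list took at most 0.364% of a vehicle member's UMIs and 1.02% of an SB225002 member's, beside medians of 0.751% and 0.749% in dividing monocytes, so at least 1 SB225002 member without Mki67 or Top2a UMIs lay above the dividing median. The S100, coagulation and Ms4a lists had 0 called genes of 8, 5 and 5, with medians of 0.32, 0.56 and 0.25 (the last -0.13 with a minimum of 20 CPM). F13a1, coagulation factor XIII, was at 739 and 781 CPM (0.08, -0.09 to 0.25).

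Transcripts of both sexes were present in both infarct libraries. With vehicle, 50 members held UMIs of Y-linked genes alone and 6 of Xist alone, and with SB225002 the numbers were 33 and 14. Both kinds were held by 7 vehicle and 3 SB225002 members, and neither kind by 20 and 34. In the 50 and 33 cells with Y-linked UMIs alone, 19 of 33 interferon-stimulated, 13 of 24 maturation and 5 of 10 chemokine genes were higher, beside 8.60% of all genes tested. There 2 chemokines, 6 of 8 dendritic-like and 4 of 18 immediate-early genes were lower, beside 6.20%. Of 18 neutrophil-like genes, 6 were lower and 1 was higher there. Retnlg turned to -3.26, Ccl24 to -2.89 and Cxcl3 to -0.31.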

How the data were processed

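Single-cell RNA-Seq of 3 libraries was analysed, 1 per group. The values are UMI counts per gene and barcode, as deposited by the authors, on build mm10. The aligner and annotation are not given in the sources used here, and Seurat 4.1.0 is named in the submitters' processing notes. Cells were filtered as stated and members found by the rule. UMIs were summed per library and scaled to CPM. Shares have exact binomial intervals, differences of shares Newcombe intervals and ratios exact conditional intervals, all at 95% and for counting error only, and PCR and animals are not covered. With 1 library per group, no count model was fitted. Scrublet called 1, 1 and 0 cells and so did not work, and doublets were kept. Genes named were the 12 highest and 12 lowest called ratios, excluding mt-, Rp, Hist, Gm and Rik names, and called and abundant list members. The members and the 22 gene lists were chosen with earlier results of these data known. Scripts were tested on simulated data. Python 3.11.15, numpy 2.4.6, scipy 1.17.1, scanpy 1.11.5, R 4.3.3, edgeR 4.0.16 and DESeq2 1.42.0 were used, the last pair for scaling factors alone. A called member of the receptor and adhesion list is not reported here.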

Additional observations from a re-analysis of the deposited data

How the results depend on the processing

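Each group was 1 library, so the counting intervals do not cover animals, and no paired analysis was possible because the groups share 1 library number only and no result comes from a test. Ratios within the members after infarction over sham were not computed, as sham held 2 cells, and the alternatives planned for them were not run. The infarct share with vehicle minus sham was 1.65 points with at least 5 Ly6c2 UMIs, 3.35 with mitochondrial shares under 5%, 0.685 at 1500 UMIs per cell and 1.74 without shared barcodes. The difference between SB225002 and vehicle stayed within its main interval under every alternative run. That interval ran from -1.30 to 0.0069 points, so this says little of stability. The shares were 0.773% with vehicle and 0.531% with SB225002 at 1500 UMIs per cell, and 1.85% and 1.75% without shared barcodes. The genes called higher and lower were 298 and 405 with a minimum of 20 CPM, 39 and 42 with 200 CPM, 498 and 474 at a fold of 1.5, 246 and 276 without cells at 5% or more of the neutrophil-like list, 283 and 386 without shared barcodes, and 312 and 225 in cells with a Y-linked UMI and no Xist. The lower genes were 266 from the mean of per-cell CPM and 317 without members holding other-type markers. Over 86 named genes and all alternatives, 1040 ratios stayed within the main interval, 129 left it and 8 changed sign. The first of these counts overstates stability. The 1.5 fold and the 20 and 200 CPM limits could not change a ratio. Leaving out the highest 6% of Scrublet scores removed no member. The edgeR and DESeq2 scaling factors only shifted every log2 ratio, by 0.049 and -0.0096. All 86 ratios stayed in each of these settings. Without shared barcodes, 44 of 81 stayed, 34 left and 3 changed sign. Without the cells at 5% or more, the log2 ratio of Ccl5 was -4.08 and that of Retnlg -1.76. Without shared barcodes, Ccl12 was at -0.72, Tmem176a at 0.66 and Cd36 at -0.57. In the Y-linked cells, Cxcl3 was at -0.31, Ccl24 at -2.89 and Retnlg at -3.26. List medians changed sign for the Ms4a genes with 20 CPM (-0.13), for heat shock genes (-0.019) and cytokine and inflammasome genes (0.020) from the mean of per-cell CPM, and for neutrophil-like genes with 5 Ly6c2 UMIs (-0.27) and in Y-linked cells (-0.53). The cause was not tested. The alternatives without the top cell of a gene, without the 5% cells, by sex transcripts and by shared barcodes were chosen after seeing the data.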
